A study of Caenorhabditis elegans with 4 samples.

Results

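The peaks described here are the ZHP-3 ChIP-seq peaks of Caenorhabditis elegans chromosome IV that lie outside its piRNA clusters. They were taken from the combined peak list of the series by position alone, as peaks on IV whose midpoint falls outside 4500000 to 7000000 and outside 13500000 to 17200000 (WormBase WS220). The rule keeps 1370 of the 2015 combined peaks on IV, out of 11840 on the 6 nuclear chromosomes. They fall into a left part below 4500000 with 542 peaks, a middle from 7000000 to 13500000 with 805 peaks, and a right tip above 17200000 with 23 peaks. In the same intervals the list of ChIP replicate 1 held 673 peaks and that of replicate 2 held 787.

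ZHP-3 is a RING-finger protein of the meiotic germline. It lies along the synaptonemal complex that joins paired homologues, later becomes restricted to the sites of crossovers, and is needed for crossovers to form. Crossovers in this species are more frequent on the chromosome arms than in the centre. The left part here is made up mostly of the left arm, and the middle lies mostly in the central region. The clusters left out hold most genes for piRNAs, the small RNAs that guide the PRG-1 Argonaute in the germline.

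All libraries came from hermaphrodite worms of genotype fem-2(b245)III kept at 20 °C, with the stage given as young adult with a germline, although the growth protocol speaks of gravid adults. fem-2 encodes a protein phosphatase of the sex-determination pathway that promotes male fates, including sperm formation in hermaphrodites, and b245 is known as a temperature-sensitive allele. There is no other genotype or condition, so every comparison below is between regions or between replicates. The material was whole worms, fixed with 1% formaldehyde for 10 minutes after grinding, and each precipitation took 5 µg of an affinity-purified polyclonal rabbit antibody. Of the 4 libraries 2 were ChIP DNA and 2 were input DNA. Nothing in the labels says that the replicates were separate cultures, so the spread between them may be technical.

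Each peak has a start, an end and a score, which is the authors' own value from their peak caller. The files do not name its scale, and it starts at 1.31 in the combined list and at 50.03 in both replicate lists. Scores were therefore ranked within a list, and compared in value only between the replicate lists. Many replicate peaks carry a score of exactly 3100, and the 3 lists may rest on the same reads. Read depth is unknown.

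Peak density was nearly the same in the left part and in the middle. The left part held 120.4 combined peaks per Mb, 59.6 in replicate 1 and 70.2 in replicate 2. The middle held 124 combined peaks per Mb, 60.6 in replicate 1 and 70.3 in replicate 2. Over the replicate lists this is 64.9 ± 7.5 peaks per Mb on the left and 65.5 ± 6.9 in the middle (SD, n = 2). Replicate 2 was higher in both intervals, so this spread does not measure the gap between them. Taken within each list, the ratio of left to middle was 0.97 for combined peaks, 0.98 in replicate 1 and 1.00 in replicate 2. Over the replicate lists it was 0.99 ± 0.01 (SD, n = 2).

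The right tip, 0.294 Mb long up to the last peak end on IV, was sparser in each list. It held 78.3 combined peaks per Mb, 37.4 in replicate 1 and 47.6 in replicate 2. Its ratio to the middle was 0.63 for combined peaks and 0.65 ± 0.04 over the replicate lists (SD, n = 2). These densities rest on 23, 11 and 14 peaks, and single windows of 250 kb inside the middle were as sparse, with as few as 15 combined peaks.

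Compared with the piRNA clusters of the same chromosome, the left part and the middle were close to the first cluster and above the second in peaks per Mb. The first cluster held 116.8 combined peaks per Mb and the second 95.4. The ratio of the left part to the second cluster was 1.26 in the combined list, 1.15 in replicate 1 and 1.25 in replicate 2. For the middle these ratios were 1.30, 1.17 and 1.25. The share of bases covered by peaks did not follow this order in each list. In the second cluster it was 4.87% in the combined list, 3.54% in replicate 1 and 3.72% in replicate 2. On the left it was 5.35%, 3.16% and 3.86%, and in the middle 5.81%, 3.64% and 4.21%. All intervals outside the clusters together stood at 1.02 times the density of the other chromosomes by combined peaks and at 0.99 ± 0.003 times over the replicate lists (SD, n = 2). With 1 condition and peaks that are not replicates, these regional differences were described and not tested.

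**Figure D1:**
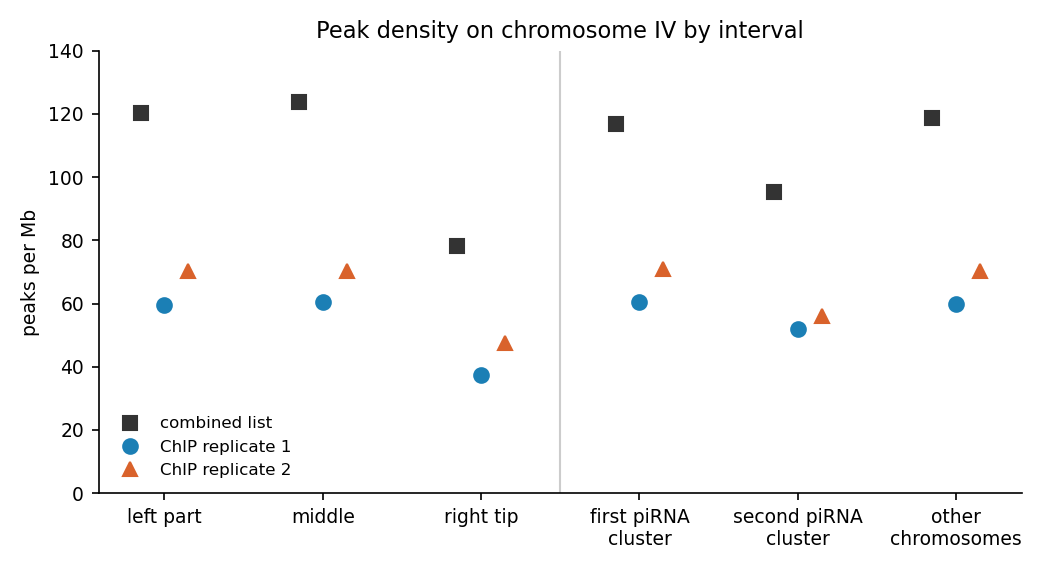
Peaks per Mb (vertical axis, from 0) in the 3 intervals outside the piRNA clusters, in both clusters and on the other chromosomes; squares are the combined list, circles replicate 1 and triangles replicate 2. The left part and the middle sit at 120.4 and 124 in the combined list, and the right tip lies lowest in all 3 lists.

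Of the 1370 combined peaks, 570 overlapped a peak in both replicate lists by at least 1 bp, or 41.6% (Wilson 95% interval 39.02 to 44.2), where 42.4% of all nuclear combined peaks did. A further 192 overlapped replicate 2 alone (14.01%, against 14.2% of all), 70 overlapped replicate 1 alone (5.11%, against 6.19%), and 538 overlapped neither (39.3%, against 37.2%). The shares found in both lists were 41.3% on the left, 42.0% in the middle and 34.8% in the right tip. Their intervals overlap, from 37.3 to 45.5, from 38.6 to 45.4 and from 18.8 to 55.1. The shares of all 4 classes were thus near those of the whole list.

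Recovery went with the score. Of the peaks in the upper 25% of the combined list, 322 of 327 members were in both replicate lists, or 98.5%, where 99.0% of all such peaks were. In the lowest 25% it was 2 of 348, or 0.57%, where 1.62% of all such peaks were. Members found in both lists had a median combined score of 37.1 and were 512.5 bp wide at the median. Those found in neither had medians of 5.14 and 210 bp. Of the 538 found in neither, 148 lay within 1000 bp of a replicate peak, or 27.5%, and the median distance to the nearest one was 2603 bp. Over all nuclear peaks found in neither these were 29.7% and 2697 bp.

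**Figure D2:**
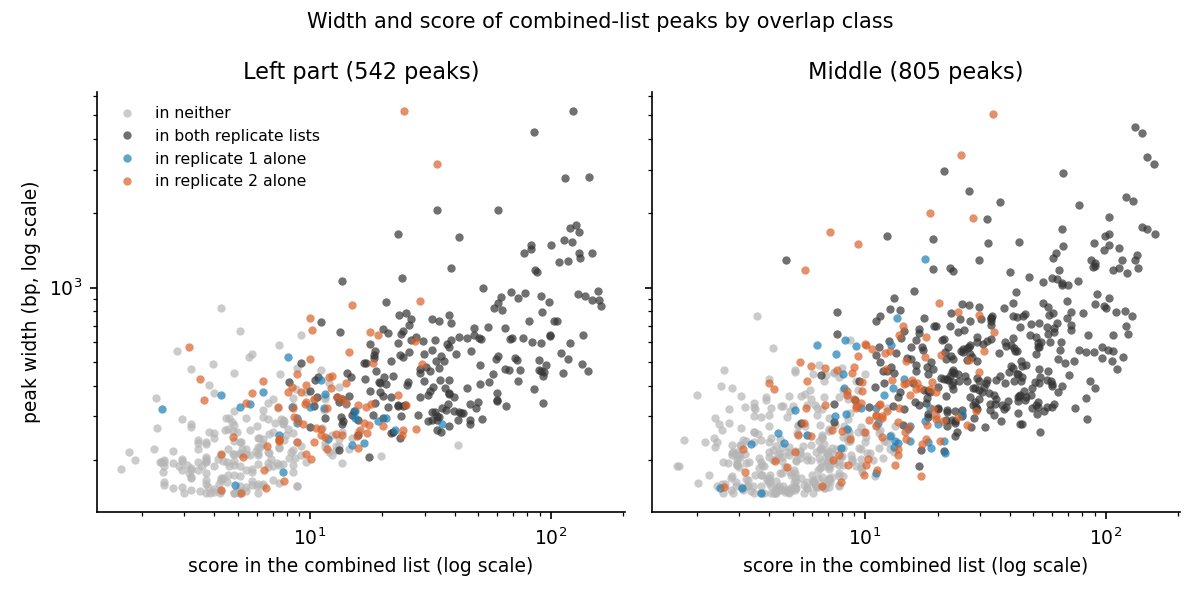
Width in bp against combined score, both on log scales, for each combined peak of the left part (542) and of the middle (805); colour gives the overlap with the replicate lists. Peaks found in neither list gather at low score and low width, and a few wide peaks of moderate score belong to replicate 2 alone.

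Taken from the replicate side, 598 of 673 replicate 1 peaks overlapped a replicate 2 peak, or 88.9% (86.3 to 91.02), where 87.3% of the whole list did. In the other direction it was 584 of 787, or 74.2% (71.04 to 77.1), where 74.7% of the whole list did. On the left 240 of 268 replicate 1 peaks had a partner, in the middle 348 of 394 and in the right tip 10 of 11. The peaks without a partner were weak on the whole. Their median score was 75.9 in replicate 1, against 224 for peaks with a partner, and 93.3 against 303 in replicate 2.

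Scores of peaks overlapping one to one were higher in replicate 2 at the median of all 3 intervals. Over 557 such pairs the median ratio of replicate 2 to replicate 1 was 1.35 (95% interval of the median 1.28 to 1.42, counting pairs only), and 397 pairs, or 71.3%, were higher in replicate 2. The medians were 1.36 over 219 pairs on the left and 1.31 over 331 pairs in the middle. In the right tip all 7 pairs were higher in replicate 2, with ratios from 1.003 to 2.90. Across all nuclear pairs the median ratio was 1.39, so these intervals shared the shift of the whole lists. Across the 557 pairs Spearman's rho was 0.79 and Pearson's r of log10 scores 0.83, as a description over peaks from the same pair of libraries. The midpoints of paired peaks lay 25.5 bp apart at the median.

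A few pairs departed strongly from that shift. In 8 of the 557 pairs the score was at least 5 times higher in replicate 2 (1.44%, against 2.32% of all nuclear pairs), and in 2 pairs it was at least 5 times higher in replicate 1 (0.36%, against 0.43%). The highest ratio belonged to a broad peak of the middle. It ran from 12316281 to 12319430 in replicate 1, and in replicate 2 from 12316261 to 12319428. It scored 100.65 in replicate 1 and 2608 in replicate 2, a ratio of 25.9, although both calls have nearly the same limits. The combined peak there scored 21.2.

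Similar pairs lay elsewhere in the middle and on the left. A peak from 13360429 to 13362007 scored 165 in replicate 1 and 3100 in replicate 2. One from 2828441 to 2830635 on the left scored 206 in replicate 1 and 3100 in replicate 2. Both pairs that went the other way lay close together in the middle. The one starting at 11325779 scored 2796 in replicate 1 and 487 in replicate 2. The one starting at 11337681 scored 2787 in replicate 1 and 473 in replicate 2, and both were wider in replicate 1, with 1255 and 1370 bp against 521 and 541 bp.

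**Figure D3:**
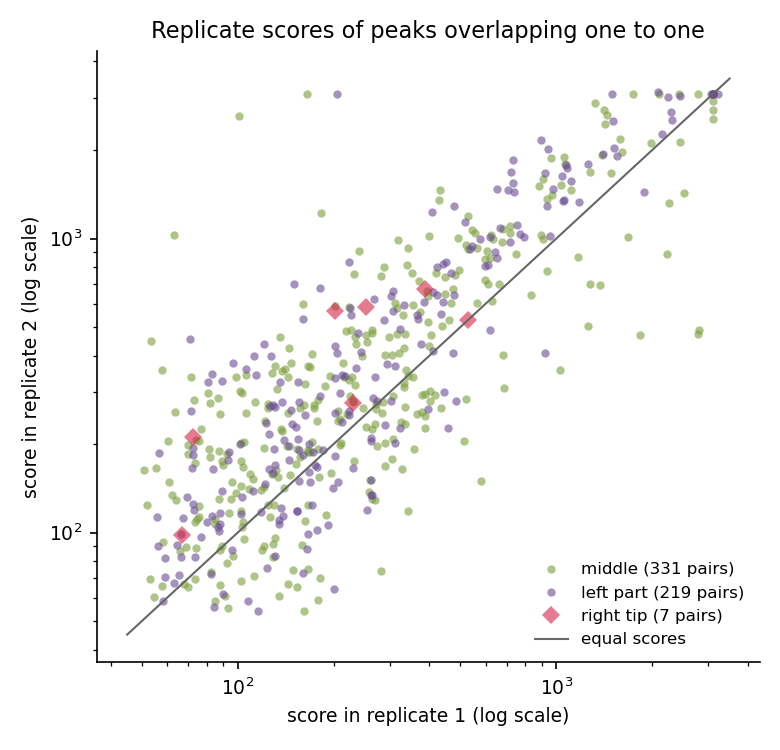
Score in replicate 1 (horizontal, log scale) against score in replicate 2 (vertical, log scale) for 557 one-to-one pairs in the left part, the middle and the right tip; the line marks equal scores. Most points, 397 of 557, lie above the line, and all 7 pairs of the right tip do.

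In the replicate lists the strongest peaks were wider in the middle than on the left, which is described here and was not tested. Wide peaks, of 1000 bp or more, made up 29 of 542 combined peaks on the left (5.35%) and 64 of 805 in the middle (7.95%), where 7.08% of all combined peaks are wide. In replicate 1 the shares were 7.84% and 10.4% (8.89% of the whole list), and in replicate 2 they were 8.54% and 9.41% (8.70%). Peaks in the upper 10% of a list by score had the higher share on the left in each list. There they numbered 60 of 542 combined peaks, or 11.1% (10.0% of the whole list by construction), and in the middle 66 of 805, or 8.20%. For replicate 1 the shares were 11.6% and 11.2% (10.0% of its list), and for replicate 2 they were 13.6% and 10.1% (10.0%).

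Within that upper 10% of the replicate lists the contrast in width was larger. In replicate 1, 12 of 31 of the strongest left peaks were wide, or 38.7% (Wilson 95% interval 23.7 to 56.2), against 32 of 44 in the middle, or 72.7% (58.2 to 83.7), and 55.7% in the whole list. In replicate 2 it was 21 of 43, or 48.8% (34.6 to 63.2), against 32 of 46, or 69.6% (55.2 to 80.9), where the intervals overlap, and 57.7% in the whole list. In the combined list it was 33.3% (22.7 to 45.9) against 45.5% (34.02 to 57.4), again with overlapping intervals, and 30.7% in the whole list. Median widths of these strongest peaks were 832 bp on the left and 1321 bp in the middle for replicate 1, and 985 and 1276 bp for replicate 2. In the combined list the medians were nearly equal, at 857.5 and 869.5 bp, and the widest strong peak lay on the left, so the contrast rests on the replicate lists.

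The highest combined score of the whole series, 161.45, belonged to a left peak of 845 bp from 3313009 to 3313853. Its replicate 1 peak scored 2289 (rank 197 of the list) and its replicate 2 peak 2692 (rank 274). The next on the left, 887 bp from 3725538 to 3726424, had a combined score of 159.57, with 2238 in replicate 1 and 3029 in replicate 2. A peak of 967 bp from 4049050 to 4050016 had 156.91, with 2307 and 2536. These 3 strongest left peaks were thus under 1000 bp, near the median width of the strongest left peaks, and below the tied score of 3100 in both replicates.

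The fourth on the left, 889 bp from 4184306 to 4185194, had a combined score of 148.94, with 1521 in replicate 1 and 2034 in replicate 2. The fifth, 1379 bp from 2219225 to 2220603, had 148.33. It was split into 2 peaks in replicate 1, with a top score of 2306, and was 1 peak at 3100 in replicate 2. In the middle the strongest combined peaks were 1645 to 4227 bp wide and reached 3100 in at least 1 replicate.

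The strongest of the middle, 1645 bp from 9196063 to 9197707, had a combined score of 159.59, with 2789 in replicate 1 and 3100 in replicate 2. The other 4 had 3100 in both replicates. They were a peak of 3185 bp from 9066034 to 9069218 with a combined score of 158.69, one of 1736 bp from 8072535 to 8074270 with 148.94, one of 3396 bp from 11913010 to 11916405 with 148.94, and one of 4227 bp from 12021387 to 12025613 with 141.81. Each of these 5 was called as 1 unbroken peak in each replicate list. The last of them also came among the 3 widest of the middle, together with the peak from 11913010.

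The widest combined peak of the middle found in both replicates, 4504 bp from 8466907 to 8471410, scored 132.73. It was split into 2 peaks in each replicate, with a top score of 3100 in both. The widest such peak on the left, 5201 bp from 3742085 to 3747285, scored 123.64. It was 4 peaks in replicate 1, with a top score of 2452, and 2 peaks in replicate 2, with 3056. The next on the left, 4294 bp from 4469593 to 4473886, scored 85.59 and was again 4 peaks in replicate 1 (top score 1061) and 2 in replicate 2 (top score 2819). The third, 2813 bp from 3384288 to 3387100, scored 144.62 and was 3 peaks in each list, with top scores of 3051 and 3100. Among the widest peaks found in both replicates, those on the left were thus broken up in the replicate lists. Those of the middle were less so, as a description of these 6 peaks. The widest left combined peak of all, 5207 bp from 4416416 to 4421622, overlapped 1 unbroken peak in replicate 2 and none in replicate 1.

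Broad peaks present in a single replicate came almost only from replicate 2. Of 71 wide replicate 2 peaks in the 3 intervals, 9 had no partner in replicate 1, or 12.7%, where 13.8% of all wide replicate 2 peaks had none. Of 64 wide replicate 1 peaks 1 had no partner, or 1.56%, where 2.44% of all did. Of those 9, 2 lay on the left and 7 in the middle. On the left the highest, 3314 bp from 3206300 to 3209613, scored 3100, and the nearest replicate 1 peak was 17987 bp away. The combined list has a peak of 3164 bp there with a score of 33.8. Another left one, 5690 bp from 4416391 to 4422080, scored 3057 in replicate 2, with a top combined score of 24.7.

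In the middle the highest single-replicate peak, 5119 bp from 11070870 to 11075988, scored 3100 in replicate 2, and its combined peak scored 34.1. A peak of 3016 bp from 9045749 to 9048764 scored 2964 in replicate 2, with a top combined score of 29.8. A further 3 wide peaks followed each other within a stretch from 8572630 to 8581951, where replicate 2 had 5 peaks scoring 341 to 2574 and replicate 1 had 0. The 6 combined peaks of that stretch scored 12.1 to 34.3. The single wide replicate 1 peak without a partner, 2387 bp from 10778427 to 10780813, scored 1288, with a top combined score of 17.7. Not all such peaks were strong. In the middle the wide replicate 2 peak from 7593866 to 7595791 scored only 57.1, with a combined score of 3.17. That from 11611379 to 11614882 scored higher in replicate 2, with 922 (rank 1077 of the list), but its top combined score was only 9.38. Depth and input were not analysed here, and their part in these single-replicate calls was not tested.

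The highest replicate 1 peak without a partner on the left was narrow, 466 bp from 570888 to 571353, with a score of 318 and a combined score of 35.5. The highest combined peak found in neither list also lay on the left. It was 230 bp wide, from 3211990 to 3212219, and its score of 41.4 was the highest of all 4408 nuclear combined peaks found in neither. The nearest replicate 2 peak was 1255 bp away and scored 180, and the nearest replicate 1 peak was 15381 bp away. It lies near the broad left peak from 3206300 that replicate 2 alone has. In the middle the highest such peak scored only 13.3, from 7774243 to 7774517.

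Along both intervals the peaks were spread over every window of 250 kb. Over 18 windows on the left the combined count ran from 14 to 48 with a median of 31, and over 26 windows in the middle from 15 to 65 with a median of 30. Over all 398 nuclear windows the median was 28. The replicates agreed on which windows were full or sparse, with a Pearson's r of 0.86 between their counts over the 44 windows, given as a description of neighbouring windows from 2 libraries.

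The fullest window of the middle was its last, from 13.25 Mb on, next to the second piRNA cluster. It held 65 combined peaks, 30 of replicate 1 and 29 of replicate 2, where the median of the middle was 30, 14 and 18. Only 3 of 398 nuclear windows had more combined peaks. Its peaks were weak at the median, with a score of 8.06 against 12.7 over all nuclear combined peaks. Of the 65, 31 were in neither replicate list, where 37.2% of all nuclear combined peaks were. Another 23 were in both lists, where 42.4% of all were, and 3 of the 65 were in the upper 10% by score. The fullest left window, from 4.25 to 4.5 Mb, also lay next to a cluster, the first. It held 48 combined peaks, 18 of replicate 1 and 25 of replicate 2. The median score there was 8.71, but 6 of the 48 were in the upper 10% of the combined list by score. Not every window beside a cluster was full. That from 7.0 to 7.25 Mb, on the other side of the first cluster, held 28 combined peaks, 13 of replicate 1 and 17 of replicate 2.

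The sparsest left windows, from 0.5 to 0.75 Mb and from 3.75 to 4.0 Mb, held 14 combined peaks each. The first had 8 peaks in each replicate and the other 7 in each. In the middle the window from 10.0 to 10.25 Mb held 15 combined peaks, 6 of replicate 1 and 8 of replicate 2. Cut into 3 equal stretches, the middle had 128 combined peaks per Mb near the first cluster, 108 in its central stretch and 136 near the second cluster. In replicate 1 these were 65.1, 47.5 and 69.2, and in replicate 2 they were 73.8, 59.5 and 77.5, so the central stretch was lowest in each list. On the left the 3 stretches held 117, 122 and 123 combined peaks per Mb from the chromosome end inwards. In replicate 1 these were 53.3, 61.3 and 64.0 and in replicate 2 they were 67.3, 64.0 and 79.3. The stretch next to the first cluster was the fullest in each list, but by little in the combined list and replicate 1. Against the next fullest stretch it had 184 to 183 combined peaks, 96 to 92 in replicate 1 and 119 to 101 in replicate 2.

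**Figure D4:**
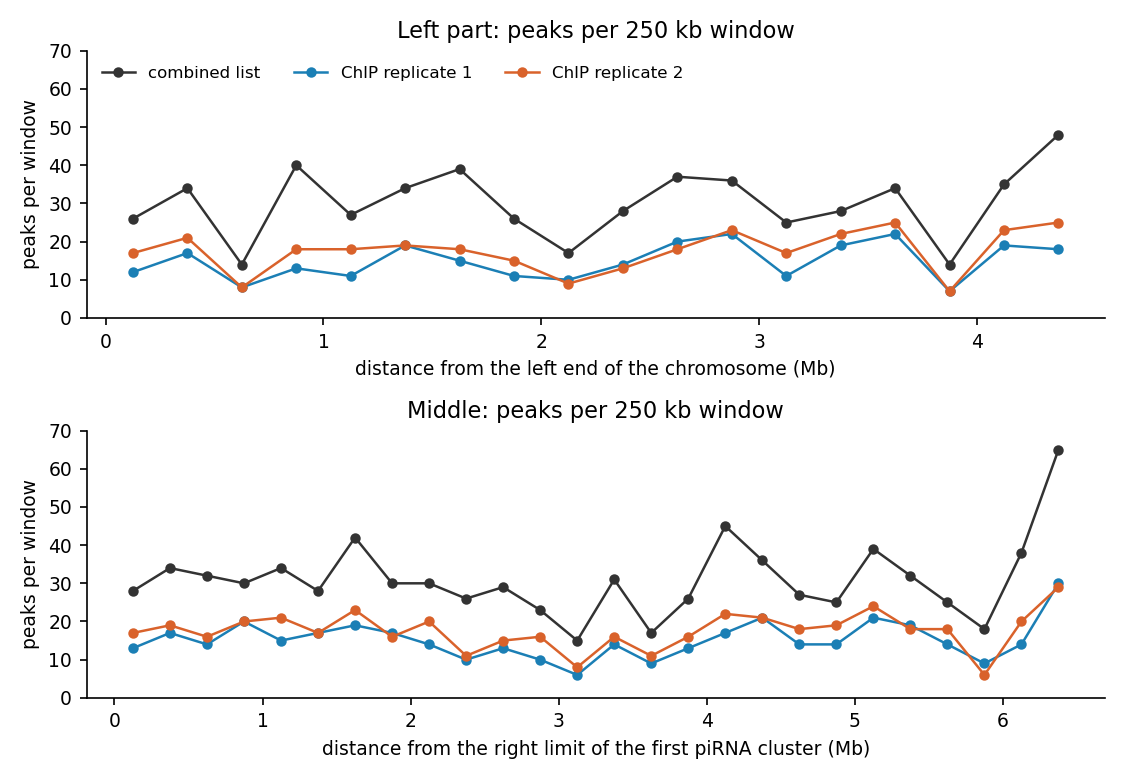
Peaks per 250 kb window (vertical axis, from 0) along the left part and the middle, with distance in Mb from the left end of each interval on the horizontal axis; black is the combined list, blue replicate 1 and orange replicate 2. The last window of the middle reaches 65 combined peaks, 30 of replicate 1 and 29 of replicate 2.

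The widest gaps were shared by the replicates. On the left neither replicate had a peak from 2495662 to 2599495, a gap of 104 kb in each list. In the middle the gap was from 10003868 to 10128656, and 125 kb long in each list. The combined list had 6 peaks inside the left gap, scoring 3.19 to 7.05, and 5 inside the gap of the middle, scoring 3.81 to 11.96. All 11 were in neither replicate list, which follows from choosing stretches without replicate peaks and is no separate result. The combined list had its own widest gaps elsewhere, 63.9 kb from 3399447 to 3463327 on the left and 104.8 kb from 10553440 to 10658268 in the middle, and neither replicate had a peak with its midpoint in them.

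Close neighbours were common but long runs of them were few. Gaps under 1000 bp made up 25.1% of the gaps between combined peaks on the left and 27.5% in the middle, where the share over all nuclear peaks was 29.3%. A single run of at least 10 combined peaks with gaps of at most 1500 bp was found, on the left from 4398506 to 4408991. It held 11 combined peaks over 10.5 kb with a median score of 9.57 and a top score of 114. It overlapped 3 peaks of replicate 1 and 8 of replicate 2, with top scores of 1136 and 1100. Just to its right lay the broad peak from 4416391 that replicate 2 alone has. With at least 5 peaks per run there were 5 runs on the left with 36 peaks (6.64% of the left peaks) and 12 in the middle with 65 peaks (8.07%), and 0 in the right tip. Over all nuclear combined peaks such runs held 11.4%. Of those in the middle, 4 fell in the fullest window.

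At the left end of the chromosome the lists differed. Both replicates had a peak starting at the first base, 244 bp wide in replicate 1 with a score of 70.9 and 237 bp wide in replicate 2 with a score of 455. No combined peak overlaps either, and the first combined peak on IV lay from 17252 to 17620. That peak scored 37.7, with 263 in replicate 1 and 134 in replicate 2. The peak at the chromosome end was one of 4 replicate 1 peaks and one of 10 replicate 2 peaks in the 3 intervals that no combined peak overlaps. These are 0.59% and 1.27% of the replicate peaks in the intervals, where the whole lists have 0.385% and 1.27%. The end peak was the only one of them found in both replicates. The other 3 of replicate 1 scored 50.9 to 87.3 and the other 9 of replicate 2 scored 50.4 to 103.6.

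In the right tip the 23 combined peaks ran from 17214452 to 17493816. Of these, 8 were in both replicate lists, 5 in replicate 2 alone, 1 in replicate 1 alone and 9 in neither. The strongest, 375 bp from 17461248 to 17461622, had a combined score of 97.6, with 388 in replicate 1 and 674 in replicate 2. The next, 358 bp from 17249659 to 17250016, had 94.9, with 528 and 530. The third, 3320 bp from 17278152 to 17281471, had 79.4. It was the only wide combined peak of the tip, and was split into 3 peaks in replicate 1 (top score 590) and called as 1 in replicate 2 (2597). It was also the only peak of the tip in the upper 10% of replicate 2, and replicate 1 had 0 there.

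Most of the tip peaks found in both lists lay in its left portion, though the strongest did not. Of the 8 found in both lists, 5 lay between 17245121 and 17285027, and 2 others at 17333404 and 17380027 scored 55.4 and 21.7. Beyond 17380555 a gap of 46.4 kb followed in the combined list, and replicate 1 had a single peak from there to its end, the one overlapping the strongest combined peak. The highest peaks listed in a single replicate were weak, with 118 in replicate 1 from 17273694 and 171.7 in replicate 2 from 17431553. The last combined peak, from 17493468 to 17493816, scored 14.6 and was in neither replicate list, and a replicate 2 peak scoring 169 ended 488 bp before it.

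**Figure D5:**
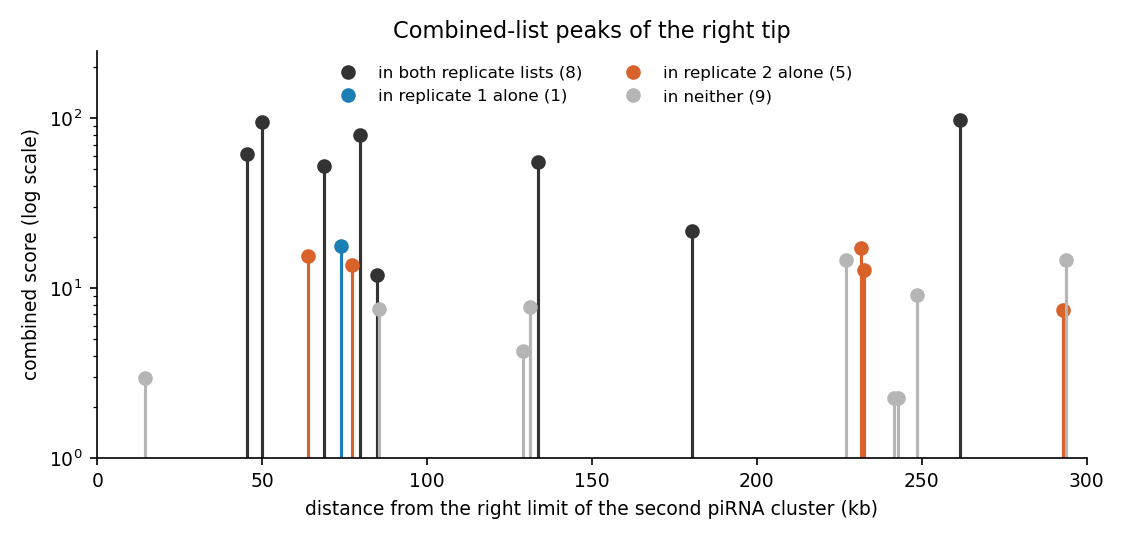
Combined score (vertical, log scale) of the 23 combined peaks of the right tip against their distance in kb from the right limit of the second piRNA cluster; colour gives the overlap with the replicate lists. The 8 peaks found in both lists include the 3 highest, at 97.6, 94.9 and 79.4, and the outermost peak, at 14.6, is in neither list.

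The limits of the intervals cut through no combined peak in the upper 10% by score. At 4500000 the nearest combined peaks scored 6.72 inside, from 4484585, and 3.43 in the cluster, from 4500689. At 7000000 they scored 7.05 inside, from 7011792, and 5.99 in the cluster, from 6977162. At 13500000 the last peak inside scored 6.08, from 13478625. The first peak of the second cluster, from 13499895 to 13500408, lies across this limit and belongs to the cluster by its midpoint. It scored 19.7 (percentile 61.9), with 203 in replicate 1 and 279 in replicate 2. At 17200000 the scores were 2.95 inside, from 17214452, and 4.23 in the cluster, from 17178026.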

How the data were processed

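Per the labels' protocols, DNA of 2 ChIP and 2 input libraries was sequenced, and BWA and ce10 are named in the submitters' processing notes. Per the file headers, coordinates are on WormBase WS220. The deposited source column names MACS for each replicate list and MACS v2 for the combined list, and the score of each peak is the authors' own. Which control and threshold were used, and whether replicates were pooled, is not given in the sources used here. Input was not analysed here. Peak lists hold no counts, so depth is unknown.

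Peaks were assigned to intervals by midpoint and called overlapping at 1 bp or more, which was checked against bedtools 2.31.1 with identical counts. The length of IV was taken as the largest peak end, 17493816. It was not checked against the WS220 length, so the last combined peak may run past the chromosome end. The percentile of a score is its rank within its own list over all nuclear peaks. Wilson 95% intervals, and the interval of the median ratio, cover counting error alone, as if peaks were independent. Interval, overlap and run functions were tested on simulated lists. Python 3.11.15, numpy 2.4.6, pandas 2.3.3, scipy 1.17.1 and matplotlib 3.10.9 were used.

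The members, lists and alternatives were chosen with earlier results of these data known. Named peaks are, per interval, the highest-scored and the widest combined peaks found in both replicates, the highest found in a single replicate or in neither, the outermost peaks, those next to the limits, the fullest and sparsest windows, the widest gaps and the runs. The score pairs that differ at least 5 times, the other wide peaks of a single replicate, the split into 3 stretches and the runs of 5 were picked after their values were seen. The contrast in width of the strongest peaks was not among the planned results. No test was made, since the study has 1 condition and regions are not replicates. Genes and base sequences at the peaks were not analysed here, since no WS220 annotation was used.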

Additional observations from a re-analysis of the deposited data

How the results depend on the processing

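The density ratio of left to middle was compared with the SD of the replicate ratios (0.01). It stayed within 1 SD of its value with limits moved by 0.25 Mb and in the replicate 1 list alone. It was 0.99 in the upper 50% by score, 1.05 in the upper 25%, 0.92 in covered bases and 0.95 without the run. In the replicate 2 list alone it was 1.00, and in the replicate 1 list alone 0.98. The ratio was thus above 1 only in the upper 25% by score. The SD of the replicate ratios does not measure the counting error of the peaks. Whether the side of 1 depends on the score limit was therefore not tested. Of the combined peaks, the share in both replicates was 37.7% with a reciprocal overlap of 50%, 80.5% in the upper 50% by score and 98.5% in the upper 25%, and stayed within its counting interval with midpoint overlap or moved limits. The share of replicate 1 peaks found in replicate 2 was 81.9% with a reciprocal overlap of 50% and stayed within its interval under the other 2 alternatives. The median percentile of the members was 48.3 in the combined list and without the run. It was 48.8 in the replicate 2 list alone and 48.1 in the replicate 1 list alone. The combined list was not remade without either replicate. The median score ratio stayed within its interval under both alternatives. Runs numbered 0 with gaps up to 1000 bp, 2 with gaps up to 3000 bp and 17 with at least 5 peaks. A single replicate list gives no value for overlap and score ratio. No paired analysis was possible because input, whose libraries carry the same replicate numbers, was not analysed here. Without depth, absence of a peak cannot be told apart from a signal under the caller's limit.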
